A study of Mus musculus with 16 samples.

Results

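Immediate early genes are switched on within minutes of a stimulus, without new protein synthesis, and 10 of them were described here across flexor tendons of 2 mouse strains, uninjured and at 7 days post-injury (dpi). The members were the rows of the count table with the symbols Fos, Fosb, Jun, Junb, Atf3, Egr1, Egr2, Egr3, Ier2 and Dusp1, which is 10 of 49568 gene symbols, and all 10 were in the table. RNA-seq was available for 16 libraries of flexor tendon, 4 from each strain without injury and 4 from each strain after injury. C57 is C57BL/6J, a common inbred laboratory strain, and MRL is MRL/MpJ, an inbred strain used as a model of tissue regeneration. All were males of 9 to 11 weeks, and no transgene or mutant allele is named for any group. The injured groups had a transverse cut through about 50% of the width of the deep digital flexor tendon of the third digit of the hind paw, under ketamine and xylazine, with buprenorphine afterwards, and no sham operation is named for the uninjured groups. RNA came from single flash-frozen tendons with their sheath and the tissue around them left on, so the libraries hold RNA of mixed cells. In such bulk tissue, fewer cells of a type and less RNA per cell cannot be told apart.

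Growth factors, stretch, wounding and cell stress act through MAP kinases and calcium signals on factors that already sit at these genes, mainly serum response factor with its ternary complex partners, which bind CArG boxes, and CREB, which binds cAMP response elements (CRE). The products fall into 3 roles. Fos, Fosb, Jun, Junb and Atf3 are basic leucine zipper proteins that pair to form or modify the AP-1 transcription factor, Egr1, Egr2 and Egr3 are zinc finger transcription factors, and Dusp1 is a phosphatase that removes the activating phosphates from MAP kinases and so closes the loop. Ier2 is a small nuclear protein of the same rapid response. In tendon, Egr1 and Egr2 are known as mechanically responsive regulators of collagen genes. The same genes are also known to be induced by tissue handling before freezing, and no label here gives the time from death to freezing.

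The promoter sequences of members that vary together in these libraries are given first, because they show which of the sites named above lie next to the start of transcription. A table of RefSeq start sites (GRCm38.p6, 250 bases before and 50 bases after each start) held windows for 7 of the 10 members. The files use GRCm38.p5, an earlier patch release of the same build. Capitals mark the CArG box and CRE sequences, where a full CRE is TGACGTCA and a CRE core is TGACG or its reverse complement CGTCA, so both strands were read and a full CRE holds 2 overlapping CRE cores. Of 32544 distinct promoter windows in the table, 1.64% held a CArG box, 1.8% a full CRE and 20.9% at least 1 CRE core.
Fos, chr12:85473640-85473939, plus strand: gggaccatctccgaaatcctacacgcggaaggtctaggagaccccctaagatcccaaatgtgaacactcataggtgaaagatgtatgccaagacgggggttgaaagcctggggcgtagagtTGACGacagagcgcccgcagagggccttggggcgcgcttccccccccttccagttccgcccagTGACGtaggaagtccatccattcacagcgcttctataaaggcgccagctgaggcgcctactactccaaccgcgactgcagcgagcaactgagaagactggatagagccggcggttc
Fosb, chr7:19309996-19310295, minus strand: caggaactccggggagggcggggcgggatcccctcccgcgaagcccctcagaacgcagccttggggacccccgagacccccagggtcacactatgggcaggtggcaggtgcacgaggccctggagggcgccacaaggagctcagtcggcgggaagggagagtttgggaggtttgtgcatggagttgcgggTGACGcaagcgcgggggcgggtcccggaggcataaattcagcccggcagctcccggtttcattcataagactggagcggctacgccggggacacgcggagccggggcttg
Junb, chr8:84978699-84978998, minus strand: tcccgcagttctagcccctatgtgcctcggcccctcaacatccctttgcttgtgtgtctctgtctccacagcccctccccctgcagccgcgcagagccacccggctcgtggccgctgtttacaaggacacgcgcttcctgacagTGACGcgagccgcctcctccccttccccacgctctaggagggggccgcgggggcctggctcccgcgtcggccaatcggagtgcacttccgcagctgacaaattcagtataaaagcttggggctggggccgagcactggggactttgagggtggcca
Egr2, chr10:67537619-67537918, plus strand: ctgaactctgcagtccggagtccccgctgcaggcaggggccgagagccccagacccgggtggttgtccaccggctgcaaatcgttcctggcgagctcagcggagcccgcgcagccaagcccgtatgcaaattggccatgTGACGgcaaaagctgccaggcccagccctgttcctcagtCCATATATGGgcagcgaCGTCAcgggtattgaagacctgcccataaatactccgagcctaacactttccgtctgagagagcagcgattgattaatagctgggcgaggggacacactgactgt
Dusp1, chr17:26508423-26508722, minus strand: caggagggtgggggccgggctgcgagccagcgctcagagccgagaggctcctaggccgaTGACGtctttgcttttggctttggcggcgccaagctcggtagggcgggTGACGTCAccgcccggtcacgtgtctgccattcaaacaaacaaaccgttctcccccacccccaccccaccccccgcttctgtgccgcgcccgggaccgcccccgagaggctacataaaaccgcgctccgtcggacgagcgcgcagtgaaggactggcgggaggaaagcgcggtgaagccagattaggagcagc
The Fos window held 2 CRE cores, and the windows of Fosb, Junb and Atf3 held 1 CRE core each. The Egr2 window shown, the third of 5 windows of this gene, held 2 CRE cores and a CArG box that begins 72 bases before the start. The first Egr2 window held neither, and the second held a CArG box but no CRE core. The Dusp1 window held a full CRE and 3 CRE cores, of which 2 are those of the full CRE. The Jun window held none of these letters. A match of letters in 300 bases is a description and is no measure of binding. Sites more than 250 bases before a start were not read, so a window without a site does not show that the gene lacks one.

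Each member lies in a known place of the GRCm38 genome, by GENCODE release M21. Fos is on chromosome 12 from 85473890 to 85477273, Fosb on chromosome 7 from 19302696 to 19310051, and Jun on chromosome 4 from 95049034 to 95052222. Junb is on chromosome 8 from 84974484 to 84978718 and Ier2 on the same chromosome from 84661331 to 84662852. Atf3 is on chromosome 1 from 191170296 to 191218039, Egr1 on chromosome 18 from 34859823 to 34864984, Egr2 on chromosome 10 from 67535475 to 67542188 and Egr3 on chromosome 14 from 70077203 to 70082614. Dusp1 is on chromosome 17 from 26505590 to 26562128. The locus of Jun overlaps the antisense gene Junos, that of Junb overlaps Prdx2 and that of Dusp1 overlaps Ergic1 on the other strand, and the strand setting of the counting is not given in the sources used here. Counts are summed over the exons of a gene, so no value below belongs to one exon or untranslated region.

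The libraries held between 12552424 and 23741648 counts, and 3 counts corresponded to between 0.126 and 0.241 CPM, the counts per library scaled to a common size with TMM factors. Uninjured libraries are numbered 1 to 4, the injured C57 libraries are BI-181 and BI-183 to BI-185, the injured MRL libraries are BI-270, BI-272 and the pair BI-274 and BI-275, and values below follow this order. All 10 tenocyte markers, Scx, Tnmd and Mkx among them, were counted in 15 of the 16 libraries, and Kera alone was at 0 in C57 uninjured 1. Both uninjured libraries numbered 4 go against their strain labels. Genes were listed that had at least 10 counts in every library of one strain and no more than 3 in any library of the other, over the 14 remaining libraries. Of 47 genes listed for MRL in this way, 46 were counted above 3 in the library labelled C57 uninjured 4 and 4 in the library labelled MRL uninjured 4. Of 12 genes listed for C57, 12 were counted above 3 in the library labelled MRL uninjured 4 and 2 in the library labelled C57 uninjured 4. Both libraries were kept as labelled, and the main comparisons of the members are given with and without them. In the library labelled C57 uninjured 4, all 12 keratinocyte markers were counted and took 8.99% of counts, against 0.0152% to 0.0982% in the other uninjured C57 libraries. All 12 skeletal muscle markers were counted in the injured C57 library BI-181 and took 6.66% of its counts, against at most 0.221% in the other 3 injured C57 libraries. The part of these markers in the results was not tested.

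Per kilobase of exon the 10 genes spanned a wide range of levels, and Dusp1 had the highest mean in each of the 4 groups. On the RPKM scale, which divides CPM by the exon length in kilobases, the Dusp1 level was 254 ± 145 (SD, n = 4) in uninjured C57 and 530 ± 384 (SD, n = 4) in uninjured MRL tendon. Fos came next in both uninjured groups, at 157 ± 201 and 410 ± 621 RPKM (SD, n = 4 each), followed by Ier2, Junb, Egr1, Jun and Atf3. This rank of Fos came from the high libraries described next: its level was 58.7 ± 45 RPKM without C57 uninjured 3, below Ier2 at 105 ± 7.31 and Junb at 92.1 ± 21, and 100 ± 43.2 RPKM without the library labelled MRL uninjured 4, below Ier2 at 108 ± 16.5 (SD, n = 3 each). The Dusp1 level without the library labelled MRL uninjured 4 was 341 ± 82.4 RPKM (SD, n = 3), and Fos stayed next to it in C57 without the library labelled C57 uninjured 4, at 205 ± 216 RPKM (SD, n = 3). In the injured groups Junb and Ier2 also stood above Fos, whose level was 55.8 ± 48 RPKM in C57 and 54.2 ± 32.3 RPKM in MRL (SD, n = 4 each). The level of Egr3 was the lowest in each group, between 0.0517 and 0.418 RPKM, but above Egr2 when C57 uninjured 3 was left out. Most neighbours in this order did not differ beyond their spread: the ranges of the 4 libraries overlapped for 8 of 9 neighbouring pairs in uninjured C57, uninjured MRL and injured MRL tendon, and for 6 of 9 in injured C57 tendon.

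The uninjured libraries of one group differed from each other more than the injured ones did in most members, which turned in MRL without 1 library. As labelled, 1 library of each uninjured group was high for nearly all members, but the one labelled MRL goes against its strain label. The library labelled MRL uninjured 4 was the highest of its group for 10 of 10 members, whereas it was the highest for 28.7% of the 15947 genes kept by the expression filter. C57 uninjured 3 was the highest of its group for 9 of 10 members, compared with 20.8% of those genes, and the exception was Egr3. In the library labelled C57 uninjured 4, 7 of 10 members were the lowest of the group, compared with 43.9% of those genes. Among the injured libraries, BI-184 was the highest for 6 members in C57, compared with 28% of the genes kept, and BI-275 the lowest for 7 members in MRL, compared with 32.3%. Tenocyte markers took 6.94% of counts in BI-275 and 10.2% to 10.8% in the other injured MRL libraries, and the part of this in its levels was not tested.

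The 10 genes together took 1.08% of all counts in the library labelled MRL uninjured 4 and between 0.149% and 0.251% in the other uninjured MRL libraries. They took 0.468% in C57 uninjured 3 and between 0.091% and 0.187% in the other uninjured C57 libraries, and between 0.052% and 0.196% in the 8 injured libraries. Apart from the 2 high libraries, the ranges of the uninjured and injured tendons therefore overlapped. In the library labelled MRL uninjured 4, heat shock genes took 0.108% of counts, compared with 0.0779% to 0.0871% in the other uninjured MRL libraries, and tenocyte markers took 6.61% compared with 8.73% to 9.31%. This library goes against its strain label, and in C57 uninjured 1 to 3 the shares were 0.0949% to 0.112% and 6.48% to 6.83%. In the library labelled MRL uninjured 4, 9 of 12 keratinocyte markers were counted and took 0.0297%, within the range of its group, with Krt5, Krt15 and Dsg1a at 0. In C57 uninjured 3, 11 of 12 keratinocyte markers were counted and took 0.0982%, with Krt15 at 0, and 6 of 10 neutrophil markers were counted and took 0.0142%, with Ly6g, Camp, Ngp and Ltf at 0, compared with 8.17e-05% to 0.00169% in the other uninjured C57 libraries. Whether these moved the members was not tested.

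**Figure D1:**
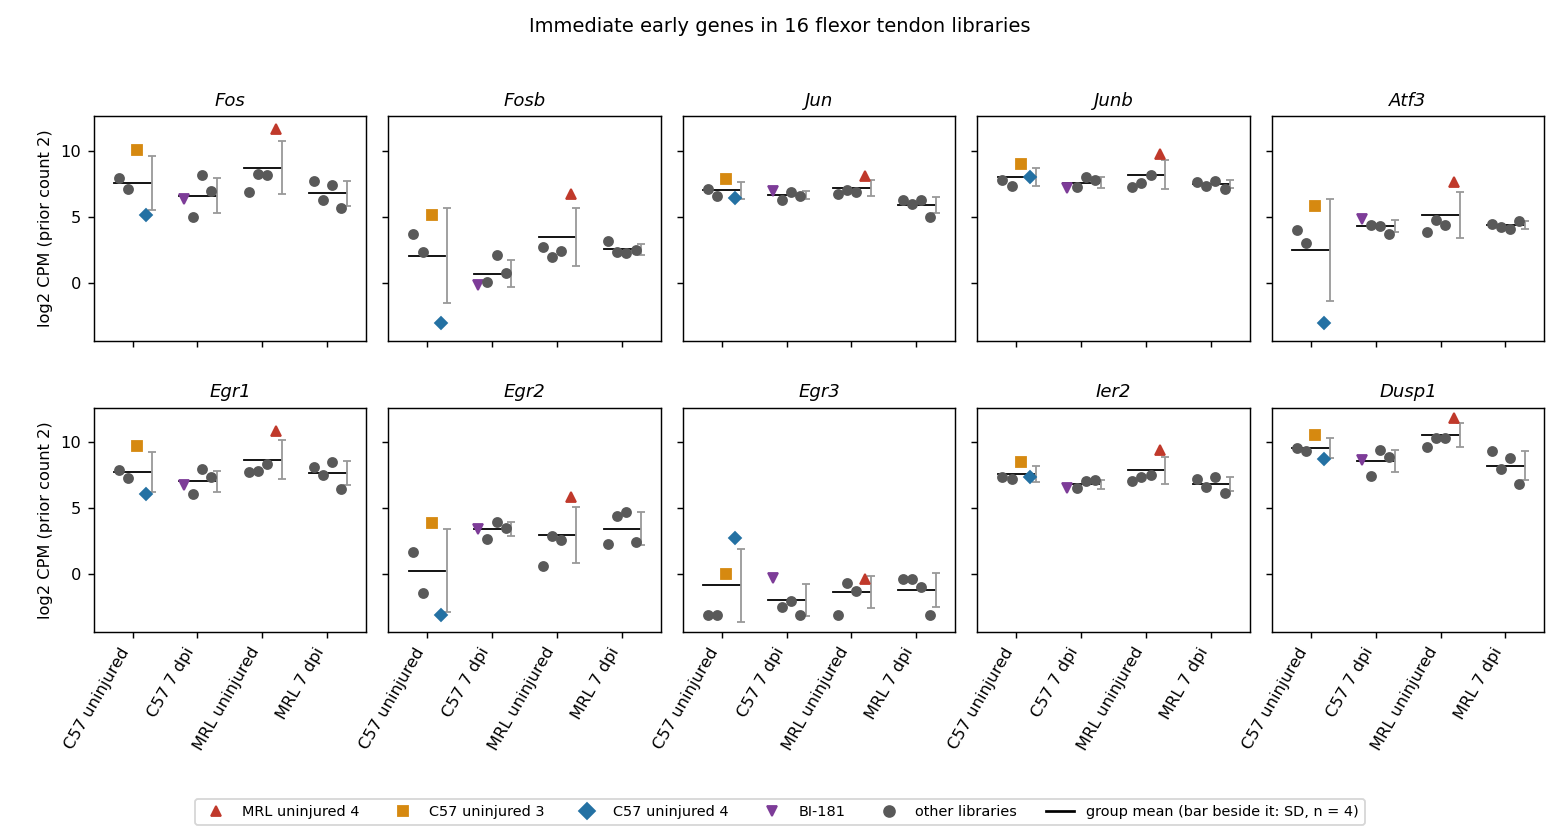
Level of each gene as log2 CPM with a prior count of 2 (vertical axis) in the 4 groups (horizontal axis), 1 point per library, with the group mean as a line and the SD as a bar (n = 4). The library labelled MRL uninjured 4 is the highest uninjured MRL point in each of the 10 panels, and C57 uninjured 3 is the highest uninjured C57 point in 9 of them.

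Among the AP-1 genes, Fos, which binds DNA only together with a partner such as Jun, had the widest range in CPM. Its level was 246, 134, 1070 and 34.5 CPM in C57 uninjured 1 to 4 and 80.7, 31.1, 291 and 122 CPM in the 4 injured C57 libraries. In MRL uninjured 1 to 4 it was 118, 299, 289 and 3150 CPM, and in the 4 injured MRL libraries it was 211, 75.7, 172 and 51.9 CPM. The high uninjured library stood 4.33-fold above the next in C57 and 10.5-fold in MRL, and the injured and uninjured groups overlapped in both strains. The injury contrast of Fos was a log2 fold change of -1.54 ± 1.01 (SE) in C57 (adjusted p = 0.509) and -2.92 ± 1.03 in MRL (adjusted p = 0.106, edgeR's quasi-likelihood test with Benjamini-Hochberg adjustment for both). Without C57 uninjured 3 the C57 value was -0.12, and without the library labelled MRL uninjured 4 the MRL value was -0.86 ± 0.49 (adjusted p = 0.313, same edgeR test).

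Fosb, a close relative of Fos, was counted at far lower levels. It was 13, 4.92, 35.9 and 0 CPM in C57 uninjured 1 to 4, where 0 counts in the fourth allow up to 0.191 CPM, and 0.78, 0.924, 4.28 and 1.56 CPM in the injured C57 libraries. In MRL uninjured 1 to 4 it was 6.36, 3.75, 5.25 and 104 CPM, and in the injured MRL libraries it was 8.7, 4.94, 4.54 and 5.4 CPM. The library labelled MRL uninjured 4 was 16.3-fold above the next library of its group, and the other 3 lay within the range of the injured MRL libraries or just below it. In C57, the injured libraries lay below 3 of the 4 uninjured ones. The contrast was -2.87 ± 1.36 in C57 (adjusted p = 0.359) and -2.32 ± 1.02 in MRL (adjusted p = 0.169, edgeR). Without the library labelled C57 uninjured 4, Fosb fell by 3.29 on the log2 scale in injured C57 tendon and passed the test (adjusted p = 0.0418, edgeR), and with BI-181 also left out it was -2.98 ± 0.81 (adjusted p = 0.0571, edgeR). Without C57 uninjured 3 it was -1.7 (adjusted p = 0.65, edgeR). With the library labelled MRL uninjured 4 left out, the MRL value was 0.22 ± 0.43 (adjusted p = 0.796, edgeR).

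Jun, the core AP-1 subunit that binds DNA with Fos or with itself, had a narrower range. It was 135, 97, 237 and 84.6 CPM in C57 uninjured 1 to 4 and 126, 75.5, 116 and 96 CPM in the injured C57 libraries. It was 104, 131, 118 and 276 CPM in MRL uninjured 1 to 4 and 76.3, 62.5, 79 and 32.3 CPM in the injured MRL libraries. The MRL groups did not overlap, since the highest injured library was below the lowest uninjured one, whereas the C57 groups did. Jun fell by 1.32 on the log2 scale in injured MRL tendon (SE 0.35, adjusted p = 0.0386, edgeR), and the call was lost in 7 of 8 fits that left out 1 library, in which the contrast ranged from -1.48 to -0.89. When the library labelled MRL uninjured 4 was set aside, it was -0.89 ± 0.29 (adjusted p = 0.0917, edgeR), and over the 7 fits the adjusted p ranged from 0.0503 without MRL uninjured 1 to 0.0928 without BI-272. The others of these 7 left out MRL uninjured 2, MRL uninjured 3, BI-270 or BI-275. In C57 the contrast was -0.46 ± 0.34 (adjusted p = 0.562, edgeR), and without C57 uninjured 3 it was -0.07.

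Junb, an AP-1 subunit that can restrain Jun, was 226, 158, 509 and 252 CPM in C57 uninjured 1 to 4 and 146, 149, 262 and 222 CPM in the injured C57 libraries. It was 154, 188, 290 and 888 CPM in MRL uninjured 1 to 4 and 200, 165, 216 and 136 CPM in the injured MRL libraries. The same 2 uninjured libraries were high, by 2.02-fold over the next in C57 and 3.06-fold in MRL, and the groups overlapped in both strains. The contrast was -0.61 ± 0.37 in C57 (adjusted p = 0.467) and -1.08 ± 0.49 in MRL (adjusted p = 0.178, edgeR), and the C57 value was -0.18 without C57 uninjured 3 and the MRL value -0.21 ± 0.24 without the library labelled MRL uninjured 4.

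Atf3, a stress-induced factor that pairs with Jun proteins and often represses, was 16.1, 8.1, 56.6 and 0 CPM in C57 uninjured 1 to 4 and 28, 20.3, 20 and 12.9 CPM in the injured C57 libraries. It was 14.1, 26.3, 20.2 and 199 CPM in MRL uninjured 1 to 4 and 22.1, 18.7, 16.4 and 26.1 CPM in the injured MRL libraries. The mean of the injured libraries was 20.3 ± 6.17 CPM in C57 and 20.8 ± 4.25 CPM in MRL (SD, n = 4 each), and apart from the library labelled MRL uninjured 4 the MRL groups overlapped. The contrast was -0.01 ± 1.19 in C57 (adjusted p = 0.997) and -1.63 ± 0.79 in MRL (adjusted p = 0.208, edgeR). It was 1.31 in C57 without C57 uninjured 3 and 0.05 ± 0.28 in MRL without the library labelled MRL uninjured 4. The C57 value, close to 0, also lay above 0 without BI-183 (0.02), BI-184 (0.03) or BI-185 (0.18).

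Of the zinc finger genes, Egr1, which is known to act on collagen genes in tendon, was the most highly expressed. It was 242, 155, 855 and 69.4 CPM in C57 uninjured 1 to 4 and 109, 68.9, 248 and 168 CPM in the injured C57 libraries. It was 215, 224, 330 and 1870 CPM in MRL uninjured 1 to 4 and 284, 184, 370 and 89.9 CPM in the injured MRL libraries. Apart from the library labelled MRL uninjured 4, the MRL groups overlapped, with 215 to 330 CPM in uninjured and a wider 89.9 to 370 CPM in injured libraries. The contrast was -1.2 ± 0.72 in C57 (adjusted p = 0.463) and -1.51 ± 0.76 in MRL (adjusted p = 0.234, edgeR), and it was -0.11 without C57 uninjured 3 and -0.12 ± 0.41 without the library labelled MRL uninjured 4.

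Egr2, a relative of Egr1 known in tendon and in myelinating glia, was the member whose injury contrast lay above 0 in C57. It was 3.09, 0.259, 14.9 and 0 CPM in C57 uninjured 1 to 4 and 10.9, 6.29, 15.2 and 11.5 CPM in the injured C57 libraries. It was 1.46, 7.28, 5.97 and 57.2 CPM in MRL uninjured 1 to 4 and 4.66, 21.2, 26.1 and 5.46 CPM in the injured MRL libraries. In C57, 3 of the 4 uninjured libraries lay below every injured one, and in MRL the injured libraries fell into 2 low and 2 higher values. The contrast was 1.24 ± 1.29 in C57 (adjusted p = 0.701) and -0.32 ± 0.98 in MRL (adjusted p = 0.864, edgeR). Without C57 uninjured 3 it was 3.26, and without the library labelled MRL uninjured 4 it was 1.57 ± 0.76 (adjusted p = 0.234, edgeR), and none of the fits that left out 1 library called it.

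Egr3, the third zinc finger gene, was near the limit of counting. It was 0, 0, 0.926 and 6.45 CPM in C57 uninjured 1 to 4, with 101 counts in the library with keratinocyte markers and 12 in C57 uninjured 3, and 0.72, 0.0616, 0.13 and 0 CPM in the injured C57 libraries. It was 0, 0.505, 0.298 and 0.643 CPM in MRL uninjured 1 to 4 and 0.672, 0.68, 0.397 and 0 CPM in the injured MRL libraries. It did not pass the filter on low values in the 4 comparisons of 2 groups with all libraries, so 9 of the 10 members were tested there.

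Ier2, the small nuclear protein, was 169, 148, 370 and 163 CPM in C57 uninjured 1 to 4 and 91.2, 93.2, 138 and 142 CPM in the injured C57 libraries. It was 138, 169, 188 and 686 CPM in MRL uninjured 1 to 4 and 147, 99.6, 166 and 71 CPM in the injured MRL libraries. The C57 groups did not overlap, with all injured libraries below all uninjured ones, but the lowest uninjured library, at 148 CPM, was close to the highest injured one, at 142 CPM. The contrast was -0.92 ± 0.32 in C57 (adjusted p = 0.231) and -1.28 ± 0.5 in MRL (adjusted p = 0.126, edgeR). The C57 value was -0.52 without C57 uninjured 3 (adjusted p = 0.382, edgeR). In the fit without the library labelled MRL uninjured 4, the MRL value was -0.43 ± 0.28 (adjusted p = 0.385, edgeR).

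Dusp1, the phosphatase that acts back on MAP kinases, was 751, 653, 1530 and 427 CPM in C57 uninjured 1 to 4 and 403, 178, 678 and 473 CPM in the injured C57 libraries. It was 813, 1290, 1280 and 3630 CPM in MRL uninjured 1 to 4 and 640, 250, 452 and 118 CPM in the injured MRL libraries. All injured MRL libraries were below all uninjured ones, also when the library labelled MRL uninjured 4 is set aside, and the C57 groups overlapped. Dusp1 fell by 2.26 on the log2 scale in injured MRL tendon, a 4.79-fold lower level (SE 0.57, adjusted p = 0.032, edgeR). The call was lost in 5 of 8 fits that left out 1 library, with values from -2.69 to -1.61. Without the library labelled MRL uninjured 4, it was -1.61 ± 0.48 (adjusted p = 0.0745, edgeR), and the adjusted p was 0.0545 without MRL uninjured 2, 0.0531 without MRL uninjured 3, 0.0882 without BI-272 and 0.0744 without BI-275. In C57 the contrast was -1 ± 0.47 (adjusted p = 0.359, edgeR), and without C57 uninjured 3 it was -0.54.

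**Figure D2:**
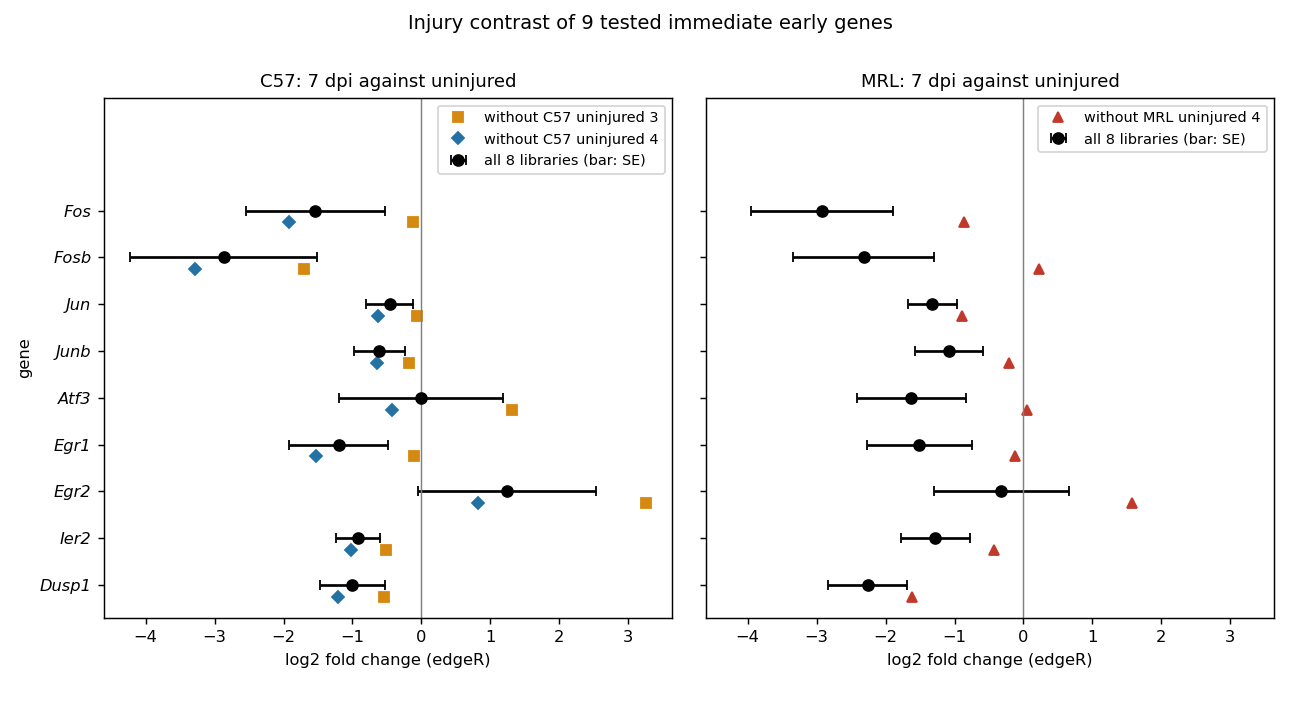
Log2 fold change of injured over uninjured tendon (horizontal axis) for the 9 tested genes (vertical axis) in C57 and MRL, from all 8 libraries of the strain (black, with SE) and without 1 uninjured library (coloured). Leaving out the library labelled MRL uninjured 4 moves Fos from -2.92 to -0.86 and Egr2 from -0.32 to 1.57, and leaving out C57 uninjured 3 moves Egr2 from 1.24 to 3.26.

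Counted over the list, a call needed both an adjusted p under 0.05 and a log2 fold change beyond 1 in either direction, and p-values measure only the spread between these samples, which may be technical. In C57, 0 of 9 tested members were called, as 1.07% of 14424 tested genes were. By edgeR 1 member had an unadjusted p under 0.05, as 15.3% of tested genes had, and DESeq2 called 0 members. The contrast lay below 0 for 8 of 9 members, with a median of -0.92 against -0.05 over all tested genes, of which 53.6% lay below 0. Without C57 uninjured 3, 7 of 9 lay below 0 and the median was -0.12. Ier2 was the member whose groups did not overlap with the injured group lower, as in 4.17% of tested genes. With the library labelled C57 uninjured 4 and BI-181 left out, 0 of 9 members were called by edgeR, as 5.97% of tested genes were, 3 had an unadjusted p under 0.05, and 8 of 9 were again below 0 with a median of -0.88. In that fit Ier2 was -0.88 ± 0.35 (adjusted p = 0.178, edgeR), and the members ran from -2.98 for Fosb to 0.86 for Egr2. Without the library labelled C57 uninjured 4 alone, the contrast was -1.92 for Fos, -0.63 for Jun, -0.65 for Junb, -0.43 for Atf3, -1.53 for Egr1, 0.82 for Egr2, -1.02 for Ier2 and -1.21 for Dusp1, none of them called.

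In MRL, 2 of 9 tested members, Jun and Dusp1, were called and were lower after injury, where 7.41% of 14274 tested genes were called in either direction. By edgeR 5 of the 9 had an unadjusted p under 0.05, as 28.3% of tested genes had. DESeq2 called 3, with Ier2 as the third at -1.29 (adjusted p = 0.0485), but gave no adjusted p for Fos, Fosb and Atf3. Jun and Dusp1 were the members whose groups did not overlap with the injured group lower, as in 9.44% of tested genes. All 9 contrasts lay below 0, with a median of -1.51 against -0.03 over all tested genes. When the library labelled MRL uninjured 4 was set aside, 0 of 9 members were called by edgeR, as 6.11% of tested genes were, 2 had an unadjusted p under 0.05, 6 were below 0 and 3 above, and the median was -0.21.

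Between the strains, the uninjured tendons gave no call. By edgeR, 0 of 9 members and 0% of 14055 tested genes were called, 1106 genes and none of the members had an unadjusted p under 0.05, and DESeq2 called 104 genes and 0 members, but gave no adjusted p for Fos, Atf3 and Egr1. With all libraries, 9 of 9 members were higher in MRL, with a median log2 fold change of 1.04 against -0.03 over all tested genes. Without both libraries that go against their strain labels, 8 of 9 members were lower in MRL, with a median of -0.49, and 0 were called by edgeR, as 3.48% of tested genes were, while 1 had an unadjusted p under 0.05. When only the library labelled MRL uninjured 4 was left out, 7 of 9 were below 0 with a median of -0.38, whereas without only the library labelled C57 uninjured 4 none was below 0 and the median was 0.72. With C57 uninjured 3, the high library of uninjured C57, left out, all 9 were above 0 and the median was 2.07. From the fit with all libraries to that without both libraries that go against their strain labels, Fosb went from 1.13 ± 1.57 to -1.82 ± 0.61 (adjusted p = 0.137, edgeR). Between the same fits Fos went from 1.37 ± 1.29 to -1.05 ± 0.95 (adjusted p = 0.664, edgeR), and Dusp1 stayed above 0, at 1.04 ± 0.52 and 0.19 ± 0.33.

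In the injured tendons, 0 of 9 members were called between the strains by edgeR, as 3.43% of 14626 tested genes were. Of the 9, 2 had an unadjusted p under 0.05, as 21.2% of all tested genes had, and DESeq2 called 0. Their median contrast was -0.01 against -0.06 over all tested genes. Fosb was higher in MRL without overlap, as 8.27% of tested genes were, with a contrast of 1.62 ± 0.62 (adjusted p = 0.171, edgeR), and Jun was -0.76 ± 0.29 (adjusted p = 0.173, edgeR). Without BI-181, Fosb was 1.37 ± 0.62 and Jun -0.63 ± 0.3 (adjusted p = 0.276 and 0.307, edgeR). The remaining 7 members lay between -0.27 for Dusp1 and 0.62 for Egr1. The difference between the strains in the injury contrast was fitted over all 16 libraries, in which all 10 members were tested. By edgeR, 0 of 10 members and 0% of 15947 genes were called, 1939 genes and 0 members had an unadjusted p under 0.05, and DESeq2 called 198 genes and 0 members. The interaction was -0.91 ± 0.52 for Jun (adjusted p = 0.508) and -1.31 ± 0.8 for Dusp1 (adjusted p = 0.535, edgeR), so their fall in MRL was not shown to differ from the contrast in C57. Without the 3 libraries named above for their labels or markers, it was -0.2 ± 0.45 for Jun and -0.48 ± 0.8 for Dusp1 (adjusted p = 0.929 and 0.891, edgeR). The median of the members was -0.72, and in the fit without these 3 libraries it was 0.64, with 7 of 9 members above 0. Without C57 uninjured 3, 9 of the 9 members other than Egr3 were below 0, with a median of -1.44.

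The median spread of these genes was larger than that of all genes kept in all 4 groups, and in MRL the larger spread without injury rested on 1 library. Not every member lay above the median of all genes. In injured C57 tendon Jun, Junb, Atf3 and Ier2 lay below it, in injured MRL tendon Fosb, Junb and Atf3, and in uninjured C57 tendon Ier2. The SD of log2 CPM between the 4 libraries had a median over the 10 members of 1.78 in uninjured C57 and 1.33 in uninjured MRL tendon, where the median over all 15947 genes kept was 0.63 and 0.42. In injured tendon the median was 0.66 in C57 and 0.74 in MRL, where that of all genes was 0.47 and 0.49. Atf3 had the largest SD in uninjured C57, at 3.85, and Fosb in uninjured MRL, at 2.19, and Jun had one of the smallest in both, at 0.66 and 0.63. The library labelled C57 uninjured 4 had 0 counts of Atf3, which the prior count sets at a log2 CPM of -3.06, beside 4.02, 3.04 and 5.83 in C57 uninjured 1 to 3. Fosb and Egr2, with an SD of 3.59 and 3.11 in uninjured C57, were also at 0 in that library. Leaving out the library labelled MRL uninjured 4, the median SD of the members in uninjured MRL was 0.41, below the 0.74 of injured MRL, where that of all genes over the same 3 libraries was 0.34. In uninjured C57 it was 1.18 without C57 uninjured 3 and 1.35 without the library labelled C57 uninjured 4, compared with 0.65 and 0.32 for all genes. The mean level of Fos in uninjured MRL tendon was 965 ± 1460 CPM with the library labelled MRL uninjured 4 (SD, n = 4) and 235 ± 101 CPM without it (SD, n = 3), and that of Dusp1 was 1750 ± 1270 and 1130 ± 273 CPM.

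**Figure D3:**
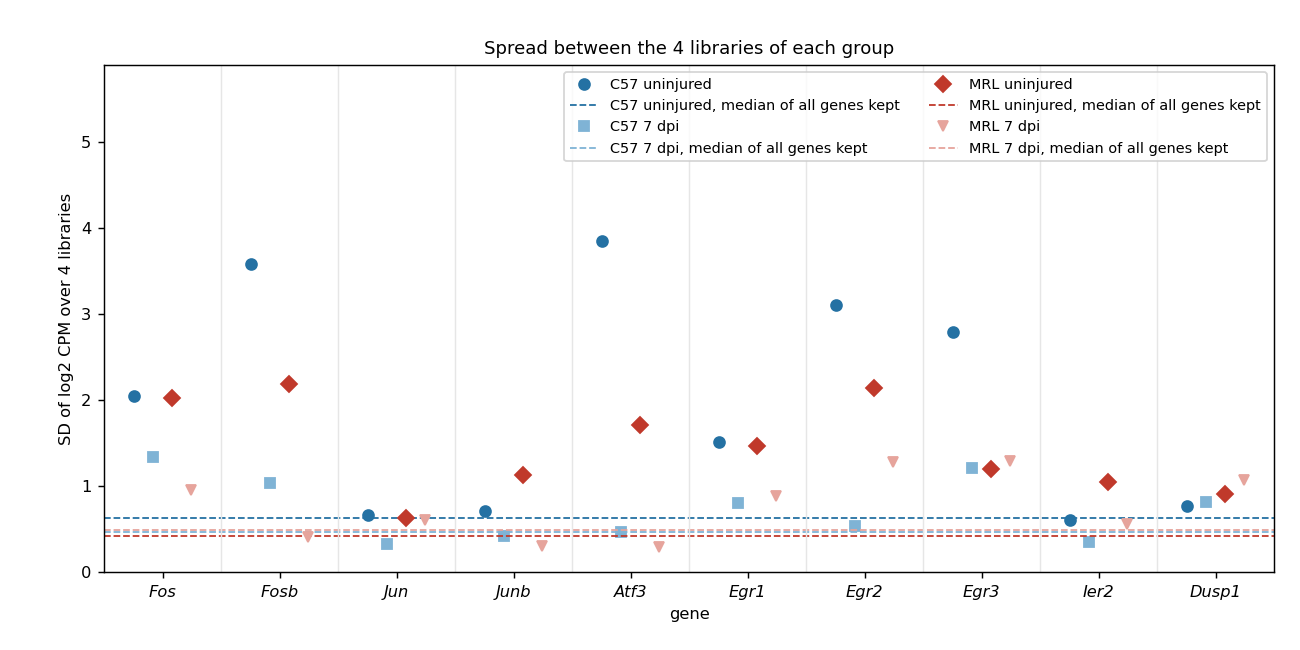
SD of log2 CPM over the 4 libraries of a group (vertical axis) for each gene (horizontal axis), with 1 symbol per group and the median over all genes kept as a dashed line. Uninjured C57 reaches 3.85 for Atf3, with 0 counts in the library labelled C57 uninjured 4, and uninjured MRL 2.19 for Fosb, while the injured groups stay at or below 1.34.

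The members deviated from their group means together. Over 16 libraries, the Pearson correlation between the deviations of 2 members had a median of 0.76 over the 45 pairs, and 34 pairs were over 0.5. The closest pair was Fos and Egr1, at 0.97, and the lowest, at -0.38, was Fosb and Egr3, where the library with keratinocyte markers was high for Egr3 and at 0 for Fosb. Without the 3 libraries named above for their labels or markers, the median was 0.73 over 13 libraries, 39 pairs were over 0.5 and 0 were below 0. Members of one library share its depth and scaling, so these values are a description.

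**Figure D4:**
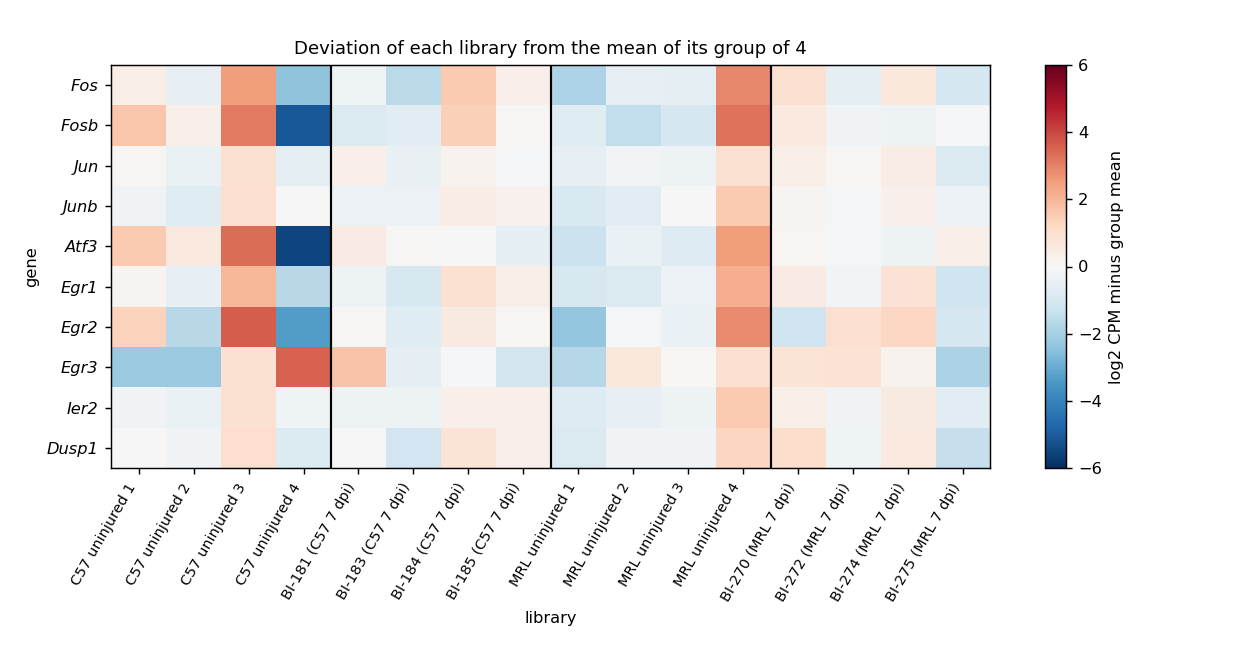
Deviation of each gene (rows) from its group mean in log2 CPM (colour) in the 16 libraries (columns), with lines between the groups. The columns of C57 uninjured 3 and of the library labelled MRL uninjured 4 are above their group mean for every gene, and that of the library labelled C57 uninjured 4 is far below for Fosb, Atf3 and Egr2 and above for Egr3.

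The genes whose deviations were most like the mean deviation of the members were looked for among 9344 genes with a mean of at least 10 CPM. Over 16 libraries they were Mcl1 at a Pearson correlation of 0.913, Tmem206 at 0.893, Cyr61 at 0.874, Lamtor3 at 0.859 and Hba-a2 at 0.855, with a median over all genes of 0.03. Mcl1 is a short-lived survival protein of the BCL2 family, Cyr61 is a matricellular protein and Hba-a2 is an alpha globin. Hba-a2 was counted in the library labelled MRL uninjured 4, at 12.3 CPM, and in 7 of the 8 C57 libraries, and was at 0 in the other 7 MRL libraries and in the library labelled C57 uninjured 4, which is the split of the strain-specific genes above. Without the library labelled C57 uninjured 4, they were Btg2 at 0.956, Mcl1 at 0.947, Zfp36 at 0.91, Cdkn1a at 0.899 and Tob1 at 0.873. Btg2 and Tob1 belong to one family of antiproliferative proteins, Zfp36 promotes the decay of messenger RNA, and Cdkn1a is a cell cycle inhibitor. Btg2 was 88, 110, 145 and 1010 CPM in MRL uninjured 1 to 4, and Zfp36 was 98, 74.8, 88.1 and 538 CPM. Both were high in the library in which all members were, which follows from choosing them by likeness to the members.

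A wider list of 38 other immediate early genes behaved in part like the members in the uninjured libraries. Of the 36 that passed the filter, 30 were highest of the uninjured MRL group in the library labelled MRL uninjured 4, compared with 28.7% of all genes kept, and 18 were highest of uninjured C57 in C57 uninjured 3, compared with 20.8%. In injured MRL tendon, 8 of the 36 were called and all 8 were lower, with 28 contrasts below 0 and a median of -0.4. Without the library labelled MRL uninjured 4, 21 contrasts lay below 0 and 15 above, with a median of -0.13. With all libraries, 2.15% of tested genes were called lower and 51.9% lay below 0, with a median of -0.03. Nr4a1, an orphan nuclear receptor, fell by 3.49 on the log2 scale (SE 0.56, adjusted p = 0.00491, edgeR), and Per1, a clock gene, fell by 1.47 (SE 0.23, adjusted p = 0.00466, edgeR). Zfp36l1, which promotes messenger RNA decay, fell by 1.08 and Hes1, a repressor downstream of Notch, fell by 1.37 (adjusted p = 0.0084 and 0.0184, edgeR). The other calls were those of Nr4a2, a relative of Nr4a1, at -1.6, of the Krüppel-like factors Klf2 at -1.52 and Klf4 at -1.35, and of Sik1, a salt-inducible kinase, at -1.86 (adjusted p = 0.0239, 0.024, 0.0255 and 0.0336, edgeR). With the library labelled MRL uninjured 4 left out, 3 of the 8 calls remained, those of Nr4a1 (-2.86, adjusted p = 0.00917), Per1 (-1.27, adjusted p = 0.0127) and Nr4a2 (-1.08, adjusted p = 0.0412, edgeR for all). Zfp36l1 at -0.87 and Hes1 at -0.98 missed only the fold threshold (adjusted p = 0.017 and 0.0278, edgeR). Klf2 at -1.17, Klf4 at -0.96 and Sik1 at -1.27 stayed below 0 without passing the test (adjusted p = 0.0648, 0.0531 and 0.0894, edgeR). In that fit 3 others of the list were called higher, Myc at 1.04, Ptgs2 at 6.97 and Ctgf at 1.13 (adjusted p = 0.0166, 0.0387 and 0.0431, edgeR), where 4.68% of all tested genes were called higher and 1.43% lower. Ptgs2 had 0, 15 and 6 counts in MRL uninjured 1 to 3 and 176, 802, 87 and 3422 in the injured MRL libraries, so its fold rests on few counts without injury. In C57, 0 of 35 tested genes of this list were called by edgeR, as 1.07% of all tested genes were, and 7 had an unadjusted p under 0.05, as 15.3% of all were. DESeq2 called 2 of the list. The contrast lay below 0 for 29 of the 35, with a median of -0.43, compared with 53.6% of all tested genes and a median of -0.05, and Klf4 (-1.44, adjusted p = 0.119) and Nfkbia (-0.73, adjusted p = 0.141, edgeR) had the smallest p.

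Of 14 AP-1 partners, which are the other proteins that can enter AP-1 or bind similar sites, 2 rose and 2 fell in injured MRL tendon, where 5.25% of all tested genes were called higher and 2.15% lower. Fosl1, a Fos relative that is induced later than Fos, rose by 3.55 on the log2 scale (SE 0.45, adjusted p = 0.00186), Maf rose by 1.06, Mafk fell by 1.06 and Jund fell by 1.29 (adjusted p = 0.0265, 0.00749 and 0.0211, edgeR). When the library labelled MRL uninjured 4 was set aside, Fosl1 at 3.92 and Maf at 1.21 remained called, and Mafk at -0.9 (adjusted p = 0.0228) and Jund at -1.07 (adjusted p = 0.0623, edgeR) did not. In C57, 0 of 13 were called by edgeR with all libraries, 3 had an unadjusted p under 0.05 and DESeq2 called 1, and Batf3 and Maff had the smallest p (adjusted p = 0.0823 for both, edgeR), with Maff at -0.98. In the fit without the library labelled C57 uninjured 4 and BI-181, where 4.53% of all tested genes were called higher, Maf rose by 1.43 (adjusted p = 0.0112) and Batf3 was called higher (adjusted p = 0.049, edgeR). Batf3 had 3, 0, 0 and 0 counts in C57 uninjured 1 to 4 and 35, 36, 33 and 26 in the injured C57 libraries, so the uninjured group was at the limit of counting and no fold is given. Maf was also lower in injured MRL than in injured C57 tendon, by a contrast of -1.17 ± 0.24 (adjusted p = 0.0272, edgeR), a call that was lost without BI-181 (-1.13, adjusted p = 0.0558, edgeR). In this comparison 4 of 10 macrophage and 4 of 10 endothelial markers were also called lower in MRL, as 1.88% of all tested genes were, and without BI-181 3 macrophage and 1 endothelial marker were, as 1.31% of all were. With all libraries, endothelial markers were at 0.000548% to 0.0039% of counts in injured MRL and 0.0158% to 0.0297% in injured C57 tendon, and their part in the Maf contrast was not tested.

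Among 13 tested feedback regulators of the MAP kinase and Egr pathways, 2 fell in injured MRL tendon, where 2.15% of all tested genes were called lower: Dusp8, a phosphatase of stress kinases, by 1.28 and Spry1, an inhibitor of growth factor receptor signalling, by 1.63 (adjusted p = 0.0293 and 0.0338, edgeR). Without the library labelled MRL uninjured 4, Dusp8 at -1.3 and Spry1 at -1.55 were as large but no longer called (adjusted p = 0.0586 and 0.0821, edgeR). In C57, 0 of 14 were called by edgeR, 6 had an unadjusted p under 0.05 and DESeq2 called 1, and Spry1 had the smallest p, at -1.35 (adjusted p = 0.0597, edgeR). With the library labelled C57 uninjured 4 and BI-181 left out, it fell by 1.62 (adjusted p = 0.00363, edgeR), where 1.44% of all tested genes were called lower. Of 24 upstream kinases and factors, 0 were called by edgeR after injury in either strain with all libraries, with medians of 0.02 in C57 and 0.06 in MRL against -0.05 and -0.03 over all tested genes, of which 1.07% and 7.41% were called, while 1 and 4 had an unadjusted p under 0.05 and DESeq2 called 0 in both. When the library labelled C57 uninjured 4 and BI-181 were set aside, Rps6ka1, a kinase downstream of ERK, rose by 2.29 in C57 (adjusted p = 0.00276, edgeR), where 4.53% of all tested genes were called higher. Of 11 heat shock genes, 0 were called in C57 by edgeR, 2 had an unadjusted p under 0.05 and DESeq2 called 1. In injured MRL tendon, where 5.25% of all tested genes were called higher and 2.15% lower, Hspe1 rose by 1.19 and Hspa1a and Hspa1b fell by 1.58 and 1.19 (adjusted p = 0.0459, 0.00531 and 0.00778, edgeR), and the last pair are near-identical copies between which reads may be split. Leaving out the library labelled MRL uninjured 4 ended the call of Hspe1 (1.27, adjusted p = 0.0718, edgeR), while Hspa1a at -1.53 and Hspa1b at -1.06 remained called and Hspb1 was called at -1.03. Between the injured strains Hspa1b was lower in MRL, at -1.01 ± 0.2 (adjusted p = 0.0252, edgeR), and without BI-181 it was -1 ± 0.22 and no longer called (adjusted p = 0.0521, edgeR). In the same libraries macrophage markers took 0.341% to 0.66% of counts in injured and 0.0947% to 0.158% in uninjured MRL tendon, with all 10 counted in each library, and 0.475% to 0.948% against 0.0692% to 0.186% in C57. Their part in these contrasts was not tested.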

How the data were processed

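The deposited table held whole-number counts per gene for 16 libraries. Per the labels and the study's methods, the authors sequenced single-end reads (100 nt), used Trimmomatic 0.36 for trimming, aligned them to GRCm38.p5 with STAR 2.5.2b and counted them with featureCounts of Subread 1.5.0p3. The annotation and strand setting are not given in the sources used here, and the labels and the methods name different library kits. Counts were tested with edgeR 4.0.16 in R 4.3.3 (filterByExpr, TMM factors, robust quasi-likelihood fit, Benjamini-Hochberg adjustment), within the 2 groups compared or, for the interaction, over all 16 libraries. A call needed both an adjusted p under 0.05 and a log2 fold change beyond 1 in either direction (for the interaction, the adjusted p alone). CPM used TMM factors of all libraries, log2 CPM a prior count of 2, and RPKM GENCODE M21 exon lengths. The fits were tested on simulated data. Alternatives were DESeq2 1.42.0, other scaling, no filter and libraries left out. Members and lists were chosen with earlier results of these data known, and list genes were named where called, at most 4 per list and comparison by p, or else the 2 of smallest p. Further calls, and those without some libraries, were named after their values were seen. Floors of 3 counts cover counting error only. Keratinocyte, skeletal muscle, macrophage, neutrophil, endothelial and tenocyte markers were summed per library.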

Additional observations from a re-analysis of the deposited data

Results flagged for a closer look

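In 10 of 40 combinations of gene and group, 1 library of 4 lay so far from the nearest other that the gap, as a share of the group's range, passed Dixon's critical value for 4 samples. Chance gives this in about 1 of 20 groups for normally distributed values, but on this CPM scale 12.1% of all combinations of a kept gene and a group passed, with 17.7% in uninjured C57 and 10.3% in uninjured MRL tendon, and the members share libraries. In 8 of the 10, the library was the one labelled MRL uninjured 4. It stood at 3150 CPM for Fos, where the nearest library was at 299, and at 104 CPM for Fosb, where the nearest was at 6.36. Jun stood at 276 CPM (nearest 131), Atf3 at 199 (nearest 26.3), Egr1 at 1870 (nearest 330), Egr2 at 57.2 (nearest 7.28), Ier2 at 686 (nearest 188) and Dusp1 at 3630 (nearest 1290). The same library went apart in this way for 3.3% of all genes kept. It is also one of the 2 libraries that go against their strain labels, and the part of this in its levels was not tested. C57 uninjured 3 stood apart for Ier2, at 370 CPM against 169 in the nearest library. The library labelled C57 uninjured 4, which holds keratinocyte markers, stood apart for Egr3, at 6.45 CPM against 0.926. These libraries were highest and apart for 1.06% and 10.6% of all genes kept, and each for 1 of the 10 members.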

How the results depend on the processing

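DESeq2 called 907 genes after injury in C57, 1818 in MRL, 104 between uninjured and 1488 between injured strains, and 198 for the interaction. A fit of all 16 libraries called 367 genes in C57 and 227 between injured strains, and without the 3 libraries that stand apart 867 genes were called in C57 and 497 between uninjured strains. With no filter, 1 gene was called between uninjured strains and 0 members in MRL, where 0 were also called without the library labelled MRL uninjured 4. Leaving out 1 library, the calls ranged from 10 (without C57 uninjured 3) to 750 (without the library labelled C57 uninjured 4) in C57, 689 to 1260 in MRL, 0 to 3 between uninjured and 231 to 481 between injured strains, and members called from 0 to 1 in C57 and 0 to 2 in MRL. The median SD of the members then ranged from 1.18 to 2.17 in uninjured C57, 0.49 to 0.79 in injured C57, 0.41 to 1.62 in uninjured MRL and 0.44 to 0.91 in injured MRL.

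With 1 library left out, 396 member fold changes kept their sign and side of the threshold, 39 turned, 12 lost their call (Jun and Dusp1 in MRL) and 1 gained one (Fosb in C57). The ranges of those that turned were, in C57, -0.43 to 1.31 for Atf3. In MRL they were -1.97 to 0.05 for Atf3, -0.78 to 1.57 for Egr2 and -2.69 to 0.22 for Fosb. Between uninjured strains they were -0.01 to 3.01 for Atf3, -0.38 to 2.07 for Egr1, -0.67 to 2.8 for Fos, -1.4 to 2.31 for Fosb, -0.38 to 0.85 for Ier2, -0.25 to 0.55 for Jun and -0.46 to 0.81 for Junb. Between injured strains they were -0.18 to 0.21 for Atf3, -0.63 to 0.06 for Dusp1, -0.05 to 0.71 for Egr2, -0.39 to 0.67 for Fos, -0.12 to 0.27 for Ier2 and -0.26 to 0.01 for Junb. For the interaction they were -2.99 to 0.02 for Atf3, -1.44 to 1 for Egr1, -3.63 to 0.27 for Egr2, -2.85 to 0.61 for Fos, -0.68 to 3.03 for Fosb, -0.82 to 0.42 for Ier2 and -0.95 to 0.32 for Junb.

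Without the 3 libraries, the sign turned in MRL for Atf3 (0.05), Egr2 (1.57) and Fosb (0.22), between uninjured strains for Atf3 (-0.43), Egr1 (-0.72), Egr2 (-0.32), Fos (-1.05), Fosb (-1.82), Ier2 (-0.49), Jun (-0.42) and Junb (-0.51), between injured strains for Atf3 (0.21) and Ier2 (-0.05), and for the interaction for Atf3 (0.64), Egr1 (1.22), Egr2 (0.69), Fos (0.82), Ier2 (0.43) and Junb (0.27). Small values also changed sign with other settings: Atf3 in C57 by DESeq2 (0.04), the fit of all libraries (0.03) and total counts (0.09), Atf3 between injured strains in the fit of all libraries (0.02), with no filter (0) and with upper-quartile factors (0.02), and Ier2 there with total counts (-0.1). Apart from what leaving libraries out shows, the cause was not tested. Same-numbered uninjured libraries of the strains correlated at -0.26 to 0.02 in their deviations. These values cannot decide whether the numbers pair the libraries, since single libraries that stand apart weigh on them. A fit with a replicate block called 0 genes and 0 members and turned Fosb to -0.25. Egr3, which passed the filter between 2 groups only with some libraries left out, was also tested by DESeq2 and with no filter, and was not called there. The rank of Fos per length, checked without single libraries after seeing the data, moved from 2 to 4 without C57 uninjured 3 and to 3 without the library labelled MRL uninjured 4.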
